A study of Mus musculus with 4 samples.

Results

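A set of 10 surface receptors that hold T cells to other cells and to matrix was followed here: the hyaluronan receptor Cd44, the integrin alpha chains Itgal, Itga4, Itgae, Itga6 and Itgav, and the integrin beta chains Itgb2, Itgb1, Itgb7 and Itgb3. They were taken as the 10 genes of 18193 named on the array, with all 30 of the 34945 probe sets that the platform annotation gives to exactly 1 of these symbols. A probe set is a group of short probes read as 1 signal. RNA came from CD4 single-positive thymocytes of B6 mice, sorted to exclude cells with CD25, cells with a gamma delta T cell receptor and NKT cells stained by the CD1d-PBS57 tetramer. All mice carried the floxed allele Cul3fl/fl. The LM group (2 arrays) was negative for CD4 Cre and the KO group (2 arrays) was positive for it, so that Cre is driven in cells that use the CD4 promoter. No array came from mice with Cre and without floxed Cul3, so what Cre itself does and what loss of Cul3 does cannot be told apart. Nothing in the labels ties the 2 arrays of a group to different animals, and the p-values therefore reflect a spread between samples that may be technical. Age and sex are not given in the labels.

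Integrins are heterodimers of 1 alpha and 1 beta chain that bind ligands on other cells or in the matrix, and chemokine or antigen receptor signals switch them to a high-affinity state. Itgal pairs with Itgb2 to form LFA-1, which binds ICAMs. Itga4 pairs with Itgb1 (VLA-4, for VCAM-1 and fibronectin) or with Itgb7 (for MAdCAM-1). Itgae, which encodes CD103, pairs with Itgb7 to form a receptor for E-cadherin. Cd44 is no integrin: it binds hyaluronan, is low on naive T cells and is used as a mark of activated and memory T cells. In the thymus, integrins take part in moving thymocytes between cortex and medulla and in holding them to stroma.

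The genes lie at these positions in the RefSeq annotation of GRCm38.p6. Cd44 is at chr2:102811141-102901669, Itga4 at chr2:79255426-79333114, Itga6 at chr2:71786886-71858427 and Itgav at chr2:83722303-83806917. Itgae is at chr11:73090505-73147449, Itgb3 at chr11:104608000-104670476, Itgal at chr7:127296139-127335137, Itgb1 at chr8:128685654-128733579, Itgb2 at chr10:77530329-77565708 and Itgb7 at chr15:102215994-102233405. RefSeq start site windows were at hand for 5 of the 10, namely Cd44, Itga4, Itgav, Itgb1 and Itgb7. The windows of Cd44 and Itgb7 are shown because these were the 2 members with an unadjusted p under 0.05, in opposite directions. Each is the 250 bases before a start site, 5′ to 3′ on the gene's minus strand, at chr2:102901666-102901915 for Cd44 and chr15:102231936-102232185 for Itgb7. The Itgb7 window lies inside the annotated span of the gene, before an internal start site.
Cd44: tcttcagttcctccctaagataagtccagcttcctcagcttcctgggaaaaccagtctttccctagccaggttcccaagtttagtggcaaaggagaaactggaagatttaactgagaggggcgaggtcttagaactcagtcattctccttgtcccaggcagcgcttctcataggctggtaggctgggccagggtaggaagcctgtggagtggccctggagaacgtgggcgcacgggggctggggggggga
Itgb7: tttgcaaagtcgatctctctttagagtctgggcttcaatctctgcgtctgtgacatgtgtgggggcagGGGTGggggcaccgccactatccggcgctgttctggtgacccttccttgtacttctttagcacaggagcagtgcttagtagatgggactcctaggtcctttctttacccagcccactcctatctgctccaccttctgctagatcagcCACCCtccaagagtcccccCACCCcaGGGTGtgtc
Capitals mark any match, on either strand, to 1 of 6 motifs: TGANTCA (AP-1), TGACNNNGC (the core of the antioxidant response element), TGTGGT (RUNX), TTCNNNGAA (STAT or BCL6 type), CACCC (KLF) and GGGCGG (GC box). KLF and GC box letters can overlap other matches. The Cd44 window held 0 matches to any of the 6. The Itgb7 window held 4 CACCC matches and 0 of the other 5 motifs, and 52.0% of 32851 such windows held at least 1 CACCC. Among all windows, 6.75% held the AP-1 letters, 10.2% the antioxidant response element core, 14.0% the RUNX letters, 7.02% the STAT or BCL6 type and 32.7% the GC box. A match is a string of letters only, and no binding was measured.

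Cul3, the cullin scaffold targeted in the KO mice, was read first as a check of the labels. Its signal was 5332.9 and 5724.4 in LM and 5380.2 and 5577.3 in the arrays labelled KO, which differed by -0.01 ± 0.09 (log2 difference with SE). The arrays' genotype is thus taken from the labels alone, and no probe position was at hand to tell whether this probe set lies in the deleted part. Signals here are the deposited linear values, each array scaled to a trimmed mean of 500.0, and array number and signal over background limit their precision. Differences are KO minus LM in limma, on quantile normalized log2(signal + 16), with the brightest probe set standing for its gene and Benjamini-Hochberg adjustment over all 11255 genes tested. Pairwise correlations of the 4 arrays ran from 0.961 to 0.974. The LM arrays correlated at 0.974 with each other and the KO arrays at 0.964. Pairs of an LM and a KO array ran from 0.961 to 0.966. KO replicate 1 correlated more with each LM array (0.966 and 0.965) than with KO replicate 2. KO replicate 2 correlated less with each LM array (0.963 and 0.961) than with KO replicate 1. Of the CD4 T cell markers, 5 of 5 were above background and summed to between 38789 and 40723 in LM and between 37140 and 40298 in KO. The CD8 T cell markers were above background in 2 of 2 cases, summing to 1093 to 1214 in LM and 1104 to 1555 in KO. Of the platelet markers, 0 of 4 were above background.

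None of the 10 receptors passed an adjusted p of 0.05 in limma (0 of 10), against 0.275% of all genes tested, 15 higher and 16 lower. All 10 were above background on at least 2 arrays and entered the test. At an unadjusted p under 0.05, 1 of 10 was higher in KO (Cd44), against 4.23% of all genes, and 1 of 10 was lower (Itgb7), against 4.17%. The KO and LM values did not overlap, with KO higher, for 2 of 10 (Cd44 and Itgae), against 19.1% of all genes. They did not overlap, with KO lower, for 4 of 10 (Itga6, Itgav, Itgb2 and Itgb7), against 18.3%. The median difference over the 10 was 0.01 on the log2 scale, with 5 higher and 5 lower, beside 0.00 over all genes. That median ran from -0.084 to 0.077 when single arrays were left out. With all probe sets tested one by one, 28 of the 30 were above background on at least 2 arrays and 0 of 28 passed, against 0.197% of 26916. Among the 28, 13 differences were above 0 and 15 below; 5 were separate with KO higher, against 18.1% of all probe sets, and 5 with KO lower, against 18.4%. At an unadjusted p under 0.05, 3 of 28 were higher in KO, against 3.84% of all probe sets, and 2 of 28 were lower, against 3.86%. The 3 higher ones are all probe sets of Cd44, so they count 1 gene more than once.

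**Figure D1:**
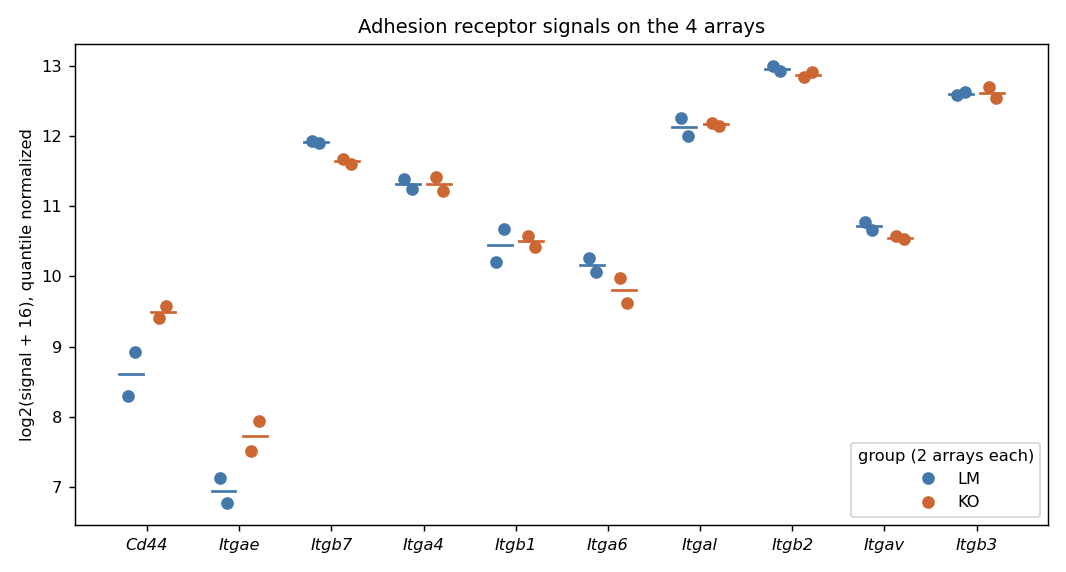
Normalized log2(signal + 16) of the 10 receptor genes (y axis) on each of the 2 LM and 2 KO arrays (points), with group means as lines. The KO points lie above both LM points for Cd44 and Itgae and below them for Itga6, Itgav, Itgb2 and Itgb7; levels of different genes come from different probes and are not comparable.

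Cd44 had the largest difference of the 10 receptors. Its brightest probe set, 1423760_at, read 307.7 and 457.0 in LM and 659.5 and 750.1 in KO. Both KO arrays lay above both LM arrays, and the LM arrays differed more from each other than the KO arrays did. On the log2 scale the means were 8.61 ± 0.44 in LM and 9.50 ± 0.12 in KO (SD, n = 2 each). The difference was 0.89 ± 0.24 (SE; 95% interval 0.35 to 1.42), or 1.85-fold, with limma adjusted p = 0.262. Among all genes tested, 149 had a smaller p and 166 a larger positive difference. Cd44 is therefore not a called gene in these 4 arrays.

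The other Cd44 probe sets were read the same way, and since all 4 report on the same RNA samples they are no replicates of the genotype. Probe set 1434376_at read 435.9 and 378.5 in LM and 663.2 and 583.4 in KO, a difference of 0.60 ± 0.22 (limma adjusted p = 0.516 over all probe sets). Probe set 1452483_a_at, of a type that matches several transcripts of 1 gene, read 290.6 and 239.6 in LM and 686.5 and 430.1 in KO, a difference of 0.99 ± 0.27 (adjusted p = 0.290). Probe set 1443265_at read 49.6, 51.0, 60.7 and 71.5 on LM 1, LM 2, KO 1 and KO 2, below background on all 4 arrays, and was not tested. On each of the 4 probe sets both KO arrays were above both LM arrays. With the probe sets averaged into 1 value, Cd44 differed by 0.67 (adjusted p = 0.296).

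The Cd44 difference changed with the LM array left out. Without LM replicate 1, the lower of them on the brightest probe set, the difference was 0.58 with adjusted p = 0.808. Without LM replicate 2 it was 1.18 with adjusted p = 0.0585, and 1.15 with adjusted p = 0.0461 if the remaining 3 arrays were also left without normalization, the only member gene past the threshold in any fit. At the probe set level, 1452483_a_at passed without KO replicate 2, at 1.34 with adjusted p = 0.033, and no other receptor probe set passed in a fit at that level. These fits of 3 arrays assume that the lone array varies like the other group. Adjusted p in the fits on all 4 arrays ran from 0.152 to 0.600.

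**Figure D2:**
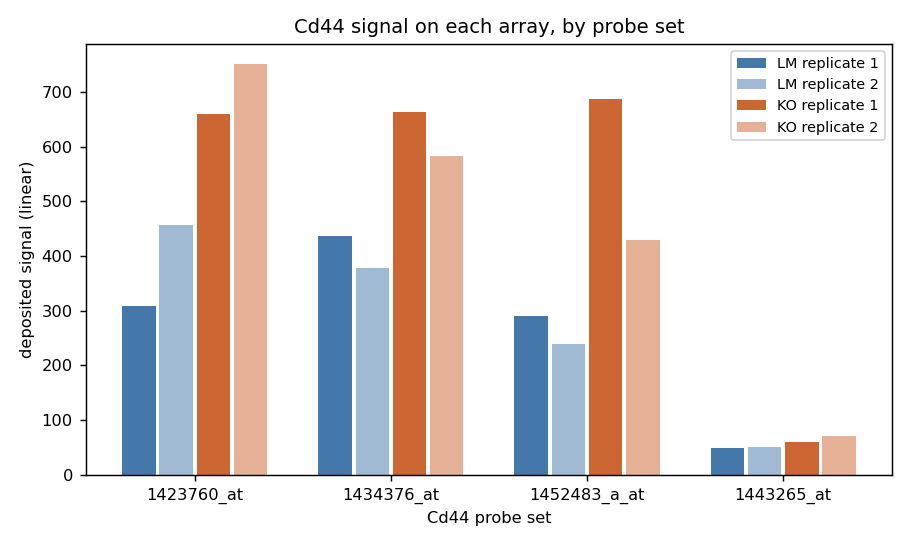
Deposited linear signal (y axis, from 0) of the 4 Cd44 probe sets (x axis) on each of the 4 arrays (bars, 1 per array, LM blue and KO orange). On each probe set both KO bars stand above both LM bars; 1443265_at, at 49.6 to 71.5, is below background on every array.

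Regulatory and memory T cells carry Cd44, and the summed signals of both marker lists did not overlap between the groups, with KO higher, although only 1 marker passed the test. The summed signal of the regulatory T cell list was 11146 to 11575 in LM and 15009 to 16718 in KO. Of its 7 markers, 7 were above background and 7 had a difference above 0, where 50.3% of all genes did. Izumo1r, the folate receptor 4 of these cells, passed the test (0.58 ± 0.09, limma adjusted p = 0.0213). It was the brightest of the list, at 4859.1 and 5022.2 in LM and 7706.0 and 7090.6 in KO, and so weighed most in the linear sum. The Izumo1r call was lost when either KO array was dropped (adjusted p = 0.0771 without replicate 1 and 0.0582 without replicate 2), without the filter on dim genes (0.234), under median centring (0.288) and in eBayes without the trend (0.498). Il2ra, the CD25 chain against which the cells were sorted, read 611.3 and 540.0 in LM and 962.6 and 948.5 in KO (0.72, adjusted p = 0.221). Foxp3, the transcription factor that defines regulatory T cells, read 498.7 and 288.5 in LM and 794.3 and 362.9 in KO, and here the groups overlapped (adjusted p = 0.804), as they did for Ctla4 and Tnfrsf18. The list for recirculating memory or effector T cells summed to 3472 to 4118 in LM and 4589 to 4877 in KO, with 6 of 7 tested markers having a difference above 0 (Cxcr3 at -0.11), 0 called, and Nkg7 and Il1r2 below background. In this list the groups overlapped for Cxcr3, Ccr6 and Id2. KO was separate and higher for the other tested members, Ccl5, S100a4, S100a6 and Ahnak. KO was also separate and higher for 19.1% of all genes. Id2, the brightest, read 2207.6 and 2512.1 in LM and 2675.9 and 2340.1 in KO. Another member, S100a4, a calcium-binding protein of memory cells, read 53.3 and 39.8 in LM and 244.5 and 177.3 in KO. S100a4 was below background on both LM arrays, so its level in KO was at least 1.92-fold that in LM, but it did not pass (adjusted p = 0.162). S100a6 was also below background on both LM arrays, and both genes entered the test only through the KO arrays. In the marker lists of the remaining cell types, which ranged from B cells to thymic epithelium, 0 genes were called. Among these, the NKT cell list also summed higher in KO without overlap, at 960 to 1070 in LM and 1179 to 1281 in KO. Of its 4 markers with a probe set, 2 were above background, 1 with a difference above 0 and 1 below. The part of any of these cell types in the Cd44 values was not tested. In sorted bulk RNA, more cells of a type and more RNA per cell cannot be told apart.

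Neither Itgae nor Itgb7, the chains of the E-cadherin receptor, passed the test. Itgae, the CD103 chain, read 127.7 and 86.5 in LM and 164.9 and 235.9 in KO with probe set 1447541_s_at. That probe set is of a type that may match transcripts of other genes. Both KO arrays were above both LM arrays. On the normalized scale all 4 values were above the background, which lay between 77.7 and 106 by array, KO replicate 2 by the widest margin. LM replicate 2 was barely above it, at 6.77 against 6.76 on the log2 scale. The difference was 0.78 ± 0.36 (SE; 95% interval -0.01 to 1.56; limma adjusted p = 0.599). The other Itgae probe set, 1449216_at, read 152.9 and 82.9 in LM and 101.5 and 97.4 in KO. Here the groups overlapped and the sign was the opposite, at -0.23 ± 0.43 (adjusted p = 0.957 over all probe sets). The 2 probe sets of Itgae thus disagree, their mean differed by 0.27, and no direction can be given for it.

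Itgb7, the beta chain shared by the E-cadherin receptor and the MAdCAM-1 receptor, has 1 probe set. It read 3799.3 and 3881.6 in LM and 3250.8 and 3055.7 in KO. The KO arrays were both lower, and replicates lay close together in each group. On the log2 scale Itgb7 was 11.91 ± 0.02 in LM and 11.64 ± 0.04 in KO (SD, n = 2 each). The difference was -0.27 ± 0.11 (95% interval -0.52 to -0.02), a KO level at 82.8% of LM, with limma adjusted p = 0.547. It stayed between -0.30 and -0.24 with any 1 array left out.

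Itga4, the alpha chain of VLA-4 and of the MAdCAM-1 receptor, showed no difference beyond the spread. Its brightest probe set read 2640.6 and 2444.9 in LM and 2731.6 and 2349.5 in KO. The KO arrays lay on either side of the LM arrays. The difference was -0.003 ± 0.138 (SE; limma adjusted p = 0.998), and its 95% interval of -0.30 to 0.30 allows a KO level between 81.0% and 123% of LM. The groups overlapped on all 5 Itga4 probe sets, whose differences ran from -0.17 to 0.06.

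Itgb1, the beta chain that Itga4 and Itga6 share, read 1171.8 and 1635.2 in LM and 1520.6 and 1356.5 in KO. Both KO values fell between the LM values. The difference was 0.06 ± 0.19 (95% interval -0.34 to 0.47; limma adjusted p = 0.971). Of its 6 probe sets, 5 were tested and differed by -0.02 to 0.12; 4 overlapped between the groups, and 1426919_at read 137.7 and 136.7 in LM and 145.2 and 157.6 in KO. The sixth, 1438119_at, read 0.6 to 2.0 and was below background. Probe sets 1427771_x_at and 1426920_x_at are of a type that may bind other transcripts.

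Itga6, the alpha chain of a laminin receptor, read 1218.3 and 1051.6 in LM and 991.4 and 774.6 in KO with its brighter probe set. Its other probe set read 912.6 and 1153.3 in LM and 766.4 and 693.0 in KO. On both, the KO arrays were below the LM arrays. The differences were -0.36 ± 0.19 (SE; 95% interval -0.78 to 0.06; limma adjusted p = 0.690 over genes) and -0.47 ± 0.20 (adjusted p = 0.616 over probe sets). With single arrays left out, the first was -0.53 if KO replicate 1 was dropped and -0.18 if KO replicate 2 was.

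Neither chain of LFA-1 passed the test. Its alpha chain Itgal read 4740.2 and 4209.4 in LM and 4654.7 and 4452.9 in KO, with the KO values inside the LM range. The difference was 0.04 ± 0.11 (95% interval -0.21 to 0.29; limma adjusted p = 0.972), with the sign turned to -0.02 under median centring. A second Itgal probe set read 1798.1 and 2103.8 in LM and 1922.1 and 1643.1 in KO (-0.13 ± 0.16). Its beta chain Itgb2, the chain common to all leukocyte integrins of this family, read 7869.4 and 7963.7 in LM and 7380.2 and 7585.9 in KO. Both KO arrays were slightly lower, by -0.08 ± 0.08 (95% interval -0.27 to 0.10; adjusted p = 0.870). That interval allows a KO level of Itgb2 between 83.2% and 107% of LM.

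Itgav and Itgb3, which pair in the vitronectin receptor, did not pass either. Itgav read 1736.7 and 1612.1 in LM and 1513.3 and 1454.3 in KO, with both KO arrays lower, a difference of -0.17 ± 0.15 (SE; limma adjusted p = 0.854). Its 4 other probe sets overlapped between the groups and differed by -0.26 to 0.17. The widest of these, 1432678_at, read 165.9 and 66.4 in LM and 70.7 and 219.1 in KO, above background on only 2 of 4. Itgb3, also the beta chain of the platelet fibrinogen receptor, read 5863.5 and 6619.5 in LM and 6737.9 and 5801.8 in KO. The KO arrays were the highest and the lowest of the 4. The difference was 0.02 ± 0.09 (95% interval -0.19 to 0.22; adjusted p = 0.990), with the sign turned to -0.04 under median centring. Its dimmer probe set 1421511_at read 656.0 and 953.8 in LM and 925.9 and 976.4 in KO (0.28 ± 0.22), a difference that was 0.0002 without LM replicate 1 and 0.55 without LM replicate 2. Itga2b, the platelet partner of Itgb3, read between 42.5 and 47.6 and was below background on all 4 arrays.

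**Figure D3:**
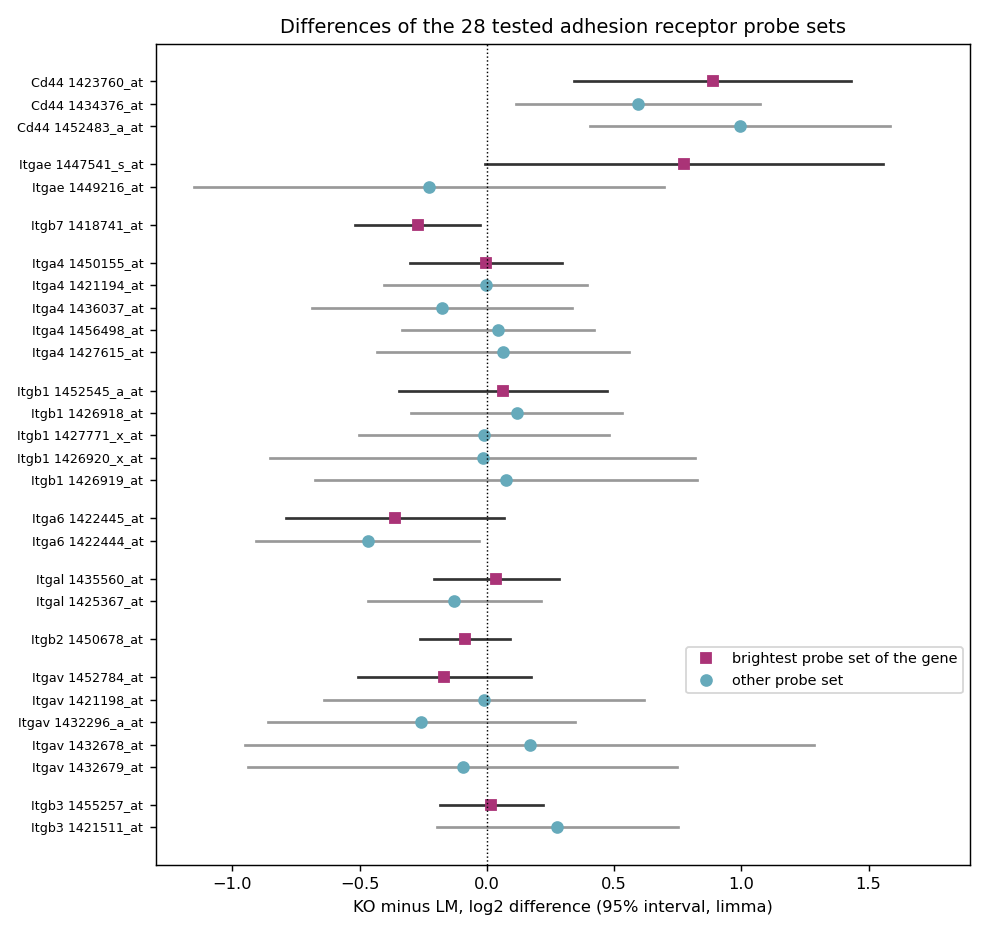
KO minus LM log2 difference with its 95% interval from limma (x axis) for the 28 tested probe sets, grouped by gene (y axis); squares mark the brightest probe set of each gene. The 3 tested Cd44 probe sets lie between 0.60 and 0.99, the 2 Itga6 probe sets between -0.47 and -0.36, and the 2 Itgae probe sets on opposite sides of 0.

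The other integrin chains on the array were mostly dim: of 16 with a probe set, 4 were tested and 0 called, with a median of -0.21 (from -0.47 to 0.11 with single arrays left out). Itga5, the alpha chain of the fibronectin receptor, read 334.7 and 428.4 in LM and 30.2 and 190.3 in KO. Both KO arrays were lower, 1 of them below background, and the difference of -2.05 ± 0.54 did not pass (limma adjusted p = 0.221). The value was -0.99 without KO replicate 1. Without KO replicate 2 the only KO array left was the one below background, so no size is given. The difference was -2.25 without LM replicate 1 and -1.83 without LM replicate 2. Of the fits on all 4 arrays, Itga5 passed under median centring (adjusted p = 0.00658) and with the replicate block (adjusted p = 0.0374). It did not pass without the filter on dim genes (adjusted p = 0.600), in eBayes without the trend (adjusted p = 0.575) or without normalization (adjusted p = 0.113). The Itga5 probe set, like the brightest of Itgae, is of a type that may match transcripts of other genes. Itga3, an alpha chain for laminins, read 261.0 and 237.9 in LM and 358.9 and 407.9 in KO (0.58 ± 0.24, adjusted p = 0.547). Of the integrin ligands, 11 of 25 were tested and 0 called, with a median of -0.07. The 2 with the smallest p were Lama2, a laminin chain at 104.3 and 51.9 against 154.9 and 197.5 (adjusted p = 0.508), and Vcam1, a VLA-4 ligand at 124.8 and 105.3 against 57.2 and 47.9 (adjusted p = 0.622). Each was below background on both arrays of its dimmer group.

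Of the genes that regulate integrin activation from inside the cell, in either direction, 0 of 25 tested were called, with a median of -0.01. Rasgrp2, an exchange factor for Rap1, read 1535.6 and 1532.8 in LM and 968.2 and 1276.1 in KO (-0.45 ± 0.18, limma adjusted p = 0.508). Its difference was -0.25 without KO replicate 1, -0.65 without KO replicate 2 and -0.67 as the mean of its probe sets. Dok2, an adaptor, read 1064.0 and 1081.1 in LM and 1131.0 and 1693.5 in KO (0.37 ± 0.20, adjusted p = 0.703), and its difference was 0.077 without KO replicate 2 and 0.67 without KO replicate 1. Among focal adhesion and outside-in signalling genes, 0 of 20 tested were called and the median was 0.04. Zyx, the actin-binding LIM protein zyxin, read 1099.6 and 1082.8 in LM and 1612.8 and 1596.6 in KO, a tight pair in each group. The Zyx difference of 0.56 ± 0.16 did not pass (adjusted p = 0.288) and was 0.097 as the mean of its probe sets. Neither did the 0.23 ± 0.11 of Vasp, an actin polymerization factor that binds zyxin, pass (adjusted p = 0.639). Vasp differed by 0.095 without LM replicate 1 and by 0.37 without LM replicate 2.

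Of the membrane proteins that sit beside integrins, 0 of 11 tested were called, with a median of 0.02. Plaur, the urokinase receptor, differed by 0.68 ± 0.29 (limma adjusted p = 0.548), by 0.40 without KO replicate 2 and by 0.96 without KO replicate 1. The tetraspanin Cd151 differed by -0.54 ± 0.25 (adjusted p = 0.602), with the opposite sign, at 0.28, when its probe sets were averaged. In the integrin traffic list, 1 of 16 tested fell and 0 rose, with a median of 0.03. The gene that fell was Rab4a, the GTPase of a fast recycling route. It read 919.6 and 1023.9 in LM and 268.9 and 463.4 in KO, with both KO arrays far below (-1.41 ± 0.25, adjusted p = 0.0429). Its call was lost without KO replicate 1 (-1.04, adjusted p = 0.0769), without the filter on dim genes (adjusted p = 0.368) and in eBayes without the trend (adjusted p = 0.407).

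The list of Cd44 linkers, hyaluronan genes and sheddases had 1 of 16 tested genes called, higher in KO, and a median of -0.02. That gene was Mmp9, a gelatinase that can bind Cd44 at the cell surface. It read 94.0 and 82.9 in LM and 579.2 and 776.9 in KO. Mmp9 was below background on both LM arrays, so it was at least 5.99-fold higher in KO (limma adjusted p = 0.00207). Without either KO array it was above background on 1 array only and was not tested. The call was also lost without the filter (adjusted p = 0.0713) and without the trend (adjusted p = 0.228). The linkers between Cd44 and actin and the sheddases Adam10 and Adam17 were not called. Adam17 read 1856.9 and 1886.1 in LM and 2455.2 and 2613.0 in KO (0.44, adjusted p = 0.348), and was picked for mention after its values were seen.

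Other T cell adhesion receptors numbered 15 tested, with 1 called lower, 0 higher and a median of -0.07. The gene that fell was Amigo2, a leucine-rich repeat adhesion protein, at 1597.6 and 1385.2 in LM and 500.6 and 452.4 in KO. The groups stood well apart (-1.61 ± 0.19, limma adjusted p = 0.00285). Its call was lost without the filter (adjusted p = 0.0713), without the trend (adjusted p = 0.233) and in the mean of its probe sets (-1.10, adjusted p = 0.280). Among regulators of adhesion receptor genes, 0 of 17 tested were called and the median was -0.06. Ski, a repressor of TGF-beta signalling through SMADs, read 5053.0 and 5003.0 in LM and 3599.7 and 2883.0 in KO (-0.63 ± 0.12, adjusted p = 0.0658). With single arrays left out the Ski difference ran from -0.77 to -0.49. For the fits with an array left out only these sizes are given, because a group then holds a lone array. Of the fits that kept every array, Ski passed on the genes above 2 times the background (adjusted p = 0.0418). Ski also passed with the replicate block (adjusted p = 0.0352). It did not pass as the mean of its probe sets (-0.43, adjusted p = 0.219). Nor did it without the filter on dim genes (adjusted p = 0.391) or in eBayes without the trend (adjusted p = 0.498). Smad3, a transducer of TGF-beta signals that induce Itgae, read 1994.5 and 1866.2 in LM and 2694.8 and 3030.7 in KO (0.57 ± 0.14, adjusted p = 0.187). On each of these 2 genes the groups did not overlap.

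**Figure D4:**
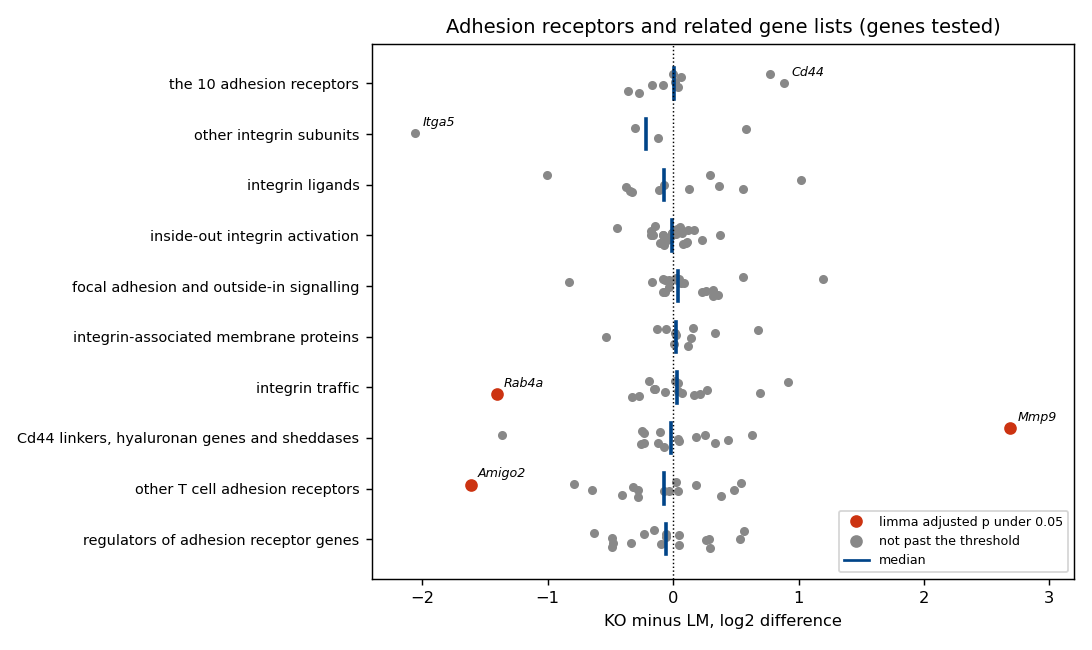
KO minus LM log2 difference (x axis) of each tested gene in the receptor set and 9 related lists (y axis); blue bars are list medians and red points pass an adjusted p of 0.05 in limma. The red points are Rab4a (-1.41), Mmp9 (2.69 as fitted, below background in LM) and Amigo2 (-1.61), and none is one of the 10 receptors.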

How the data were processed

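Each array's file values are linear intensities, 1 for every probe set, as the authors deposited them; the program that summarised the probes is not given in the sources used here. Per the labels' protocols, RNA was extracted with Trizol and amplified with WT-Ovation Pico. Of 45101 probe sets, 64 controls were left out and probe sets with several symbols or none were not named. Intensities were put on a log2(value + 16) scale, where changes of dim genes look smaller, and quantile normalized, because array medians (7.28 to 7.44) differed by over 0.1. A gene was its single-symbol probe set with the highest mean. Background was the 95th percentile of 80 probe sets for odorant and vomeronasal receptors, and a gene or probe set was tested if above it on at least 2 arrays (11255 genes, 26916 probe sets). A group below background on both arrays gives a lower bound, with each of its arrays raised to background. KO minus LM was fitted with limma 3.58.1 (R 4.3.3, eBayes with trend), two-sided, borrowing 9.96 degrees of freedom, with a threshold of 0.05 after Benjamini-Hochberg adjustment. The fit was tested on simulated data. Tables used Python 3.11.15 and pandas 2.3.3, plots matplotlib 3.10.9. The receptors and lists were chosen with earlier results of these data known. Named were all receptors, Cul3, called list genes or else the 2 of smallest p in a list, and called markers. Il2ra, Foxp3, Ctla4, Tnfrsf18, Cxcr3, Ccr6, Id2, Ccl5, Ahnak, S100a4, S100a6, Itga2b and Adam17 were added after their values were seen. No genome or protein sequences were used, so probe positions within genes were not analysed here.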

Additional observations from a re-analysis of the deposited data

How the results depend on the processing

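The receptors gave 0 calls at the gene level in every fit on all 4 arrays, and 1 (Cd44) in the fit without LM replicate 2 and without normalization, which was chosen after seeing the data; with single arrays left out, 0 receptor genes and 0 to 1 receptor probe sets were called. The 31 called genes became 0 without a filter on dim genes (1247 at an unadjusted p under 0.05) and 0 in eBayes without the trend (922), 81 with median centring, 49 at an adjusted p under 0.1 and 33 to 64 with single arrays left out, and 94 without LM replicate 2 and without normalization. The 53 called probe sets became 3 without the filter, 0 without the trend and 60 to 220 with single arrays left out; the cause was not tested. With the replicate block 43 genes and 58 probe sets were called and 0 receptors (Cd44 adjusted p = 0.172). Replicate numbers are shared by the groups, and the labels do not say whether they pair arrays. Differences between replicates 1 and 2 in LM and KO correlated at -0.017 over genes. That value cannot tell whether arrays of the same number were handled together. The receptors' median ran from -0.084 to 0.077 with single arrays left out. Signs turned for Itgal (-0.022 with median centring, -0.045 as the mean of probe sets), Itgb3 (-0.045 with median centring), Cd151 (0.28) and Cul3 (0.041) as means of probe sets, and the probe sets 1421198_at of Itgav (0.0038) and 1426920_x_at of Itgb1 (0.024) without normalization and 1456498_at of Itga4 (-0.0083) with median centring. With single arrays left out, genes whose sign turned ran from -0.10 to 0.10 (Itga4), -0.094 to 0.17 (Itgal), -0.17 to 0.29 (Itgb1), -0.061 to 0.095 (Itgb3) and -0.053 to 0.032 (Cul3). Probe sets ran from -0.24 to 0.24 (Itga4 1421194_at), -0.045 to 0.17 (1427615_at), -0.58 to 0.24 (1436037_at) and -0.12 to 0.21 (1456498_at), -0.54 to 0.088 (Itgae 1449216_at), -0.41 to 0.39 (Itgav 1421198_at), -0.56 to 0.044 (1432296_a_at), -0.33 to 0.87 (1432678_at) and -0.31 to 0.12 (1432679_at), and -0.047 to 0.28 (Itgb1 1426918_at), -0.39 to 0.35 (1426920_x_at) and -0.047 to 0.022 (1427771_x_at). Without a turn of sign, values moved by over 1.5 times for Itgav (-0.23 to -0.10), Itgb2 (-0.12 to -0.045) and the probe sets 1452483_a_at of Cd44 (0.65 to 1.34), 1422444_at of Itga6 (-0.65 to -0.29), 1425367_at of Itgal (-0.24 to -0.023) and 1421511_at of Itgb3 (0.0002 to 0.55). The same held for probe set 1426919_at of Itgb1 (0.015 to 0.14). List medians with single arrays left out ran from -0.17 to 0.14 (ligands), -0.04 to 0.04 (inside-out), 0.01 to 0.10 (focal adhesion), 0.02 to 0.12 (membrane proteins), -0.06 to 0.04 (traffic), -0.08 to 0.12 (Cd44 linkers), -0.24 to -0.04 (other adhesion receptors) and -0.15 to -0.03 (regulators). Mmp9 without a KO array, Itgae above 2 times the background and 1 receptor probe set each without LM replicate 1 and KO replicate 2 gave no value.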
